A study of Drosophila melanogaster with 2 samples.

Results

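Peaks of Su(var)2-10 binding were examined at 35 genes of the Drosophila melanogaster cell cycle and of DNA replication. The genes were taken by name from a list of cyclins, cyclin-dependent kinases and their regulators, E2F factors, replication proteins and mitotic kinases. All 35 symbols were found in the annotation, among 13945 protein-coding genes outside chromosome Y. The rule that names them uses no peak or signal. Chromatin came from embryos of a transgenic line in which GFP was fused to the C-terminal end of Su(var)2-10, and was precipitated with an antibody to GFP. Both biological replicates, labelled 2 and 3, were of 1 group: whole embryos of both sexes, pooled, aged 0 to 24 h. Fragments measured 200 to 800 bp after sonication. No second genotype, stage or untagged line was compared, so the members were set beside all coding genes, and a peak could come from any cell type or cycle stage in the embryo.

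Su(var)2-10 is the fly member of the PIAS family, proteins that help attach the small modifier SUMO to other proteins. Progress through the cell cycle is driven by cyclins bound to their kinases. E2F factors turn on genes needed for DNA synthesis, origins are marked by the origin recognition complex and loaded with the MCM helicase, and polo and aurora kinases run mitosis. In early fly embryos maternal products drive rapid cycles, and control by transcription of such genes as stg and CycE comes later.

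Each peak has a summit, the position of its highest signal, and a signal value, a score of the authors with no fixed unit. Rank 1 is the highest signal in a list. The pooled list and each replicate list held 30000 candidate peaks, most of them weak. A peak is called reproducible when it is in the authors' list of 2942 peaks past a threshold on IDR, the irreproducible discovery rate, which compares peak ranks between replicates. Those 2942 peaks were the ones with the highest pooled signal, from 129 to 2409 with a median of 195. Scores differ in scale between lists and were compared within a list. A gene was counted as having a promoter peak when a summit lay within 500 bp of any of its annotated start sites.

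The windows below are 151 bases centred on a summit. They are shown because they hold, among the 35 members, the strongest peak near a start site (Cdk1), the strongest in a gene body (CycE), the peak between a pair of replication genes (Mcm2 and RPA1) and the strongest near a mitotic gene (aurA). Each is printed on the strand of its gene, read from dm6 (RefSeq, Release 6). Capitals mark TTTGAA, with its complement TTCAAA, and also the form TTCGAA, which are core letters of the CHR element. Cdk1 is at chr2L:10386419-10386569 on the minus strand, CycE at chr2L:15747052-15747202 on the minus strand, Mcm2 at chr3R:8264635-8264785 on the plus strand and aurA at chr3R:11962847-11962997 on the plus strand.
Cdk1: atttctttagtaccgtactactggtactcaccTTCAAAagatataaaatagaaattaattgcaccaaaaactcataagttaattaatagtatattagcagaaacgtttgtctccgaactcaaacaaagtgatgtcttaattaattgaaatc
CycE: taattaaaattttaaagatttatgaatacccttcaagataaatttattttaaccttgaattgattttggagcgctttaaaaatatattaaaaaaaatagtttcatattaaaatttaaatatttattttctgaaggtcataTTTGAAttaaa
Mcm2: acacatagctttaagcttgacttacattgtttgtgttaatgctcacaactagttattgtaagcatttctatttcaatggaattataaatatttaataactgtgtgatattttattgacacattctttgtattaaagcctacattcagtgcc
aurA: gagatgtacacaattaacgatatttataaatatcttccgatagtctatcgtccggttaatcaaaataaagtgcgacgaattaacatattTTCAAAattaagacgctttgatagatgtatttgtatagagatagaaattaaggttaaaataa
GC content was 28.5% in the Cdk1 window, 16.6% in the CycE window, 28.5% in the Mcm2 window and 27.2% in the aurA window. Not every strong member peak was so poor in GC: the same width round the higher Dp summit, at rank 684 and not printed here, held 51.7%. The CycE window lay in an intron, and the other windows lay between genes.

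Short sites of the kind known for cell cycle promoters are shown next, 30 bases each, because several stood in members whose start sites had no reproducible peak. Capitals mark an exact match to the DNA replication-related element, DRE, with the letters TATCGATA, or to 1 of the E2F forms TTTGGCGC, TTTCCCGC, TTTGCCGC and TTTCGCGC, on either strand. The window searched ran from 250 bp before to 50 bp after each start site. These sites are on dm6 at chr3R:20735551-20735580 on the plus strand (Cdk2), chr3L:11833571-11833600 on the minus strand (CycA), chr2L:15746706-15746735 on the minus strand (CycE), chr3R:29255795-29255824 on the minus strand (stg), chr2L:10327923-10327952 on the minus strand (RnrL), chrX:6674389-6674418 on the plus strand (Mcm6), chr3R:8264995-8265024 on the plus strand (Mcm2) and chr2L:13829836-13829865 on the plus strand (Orc5).
Cdk2, DRE: taaggaattctTATCGATAtgtggcgctgc
CycA, DRE: acgccacgaccTATCGATAgctggacagtg
CycE, E2F: ttgttgcatttTTTGGCGCttcggatccgc
stg, E2F: taaaagctcgcGCGCCAAAatcagtggcct
RnrL, E2F: aatgactttaaTTTGGCGCctttttgtgct
Mcm6, E2F: gtcagaaaaagGCGCCAAAaccgagcaaag
Mcm2, E2F: ttagcaaacatTTTCCCGCgcattttcgca
Orc5, E2F: agagggaataaTTTGGCGCcatttcaatgg
Of these 8 genes, Mcm2 was the one with a reproducible promoter peak. The 8 genes are only some of the members with such sites, so they give no share for the set. RnrS, dpa and dup also held an E2F form and had a reproducible promoter peak, but their sites are not printed. Of all 14 members with an E2F form 4 had such a peak (28.6%), and of the 21 without it 6 had one (28.6%). None of the 7 members with DRE had one.

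A reproducible promoter peak was found at 10 members: Cdk1, CycD, E2f1, Dp, RnrS, Mcm2, dpa, dup, dap and aurA. They were 28.6% of the 35 members, against 1689 of 13945 coding genes, the background of 12.1%. No test was run on this share, because the genes form a list and the samples a single group. The share rested on the distance: at 250 bp it was 6 of 35 members (17.1%), against 9.1% of coding genes, and at 1000 bp 11 members (31.4%), against 14.2%. Among the stronger 1471 reproducible peaks it was 8 members (22.9%), against 7.46%. Among the best 2942 peaks of replicate 2 alone it was 10 members against 11.8% of coding genes, and among those of replicate 3 alone 12 members against 12.6%. Replicate 2 alone lost CycD and gained CycE, and replicate 3 alone added Cdk4 and CycE. More than 1 start site was annotated for 13 members (37.1%), against 26.5% of coding genes, and each further start widens the stretch in which a summit counts. The part of this in the share was not tested. Candidate peaks of any strength lay near the starts of 18 members (51.4%) in the pooled list, against 36.7% of coding genes. In the replicate lists they lay near 18 members in replicate 2, against 34.8% of coding genes, and 25 members (71.4%) in replicate 3, against 40% of coding genes.

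**Figure D1:**
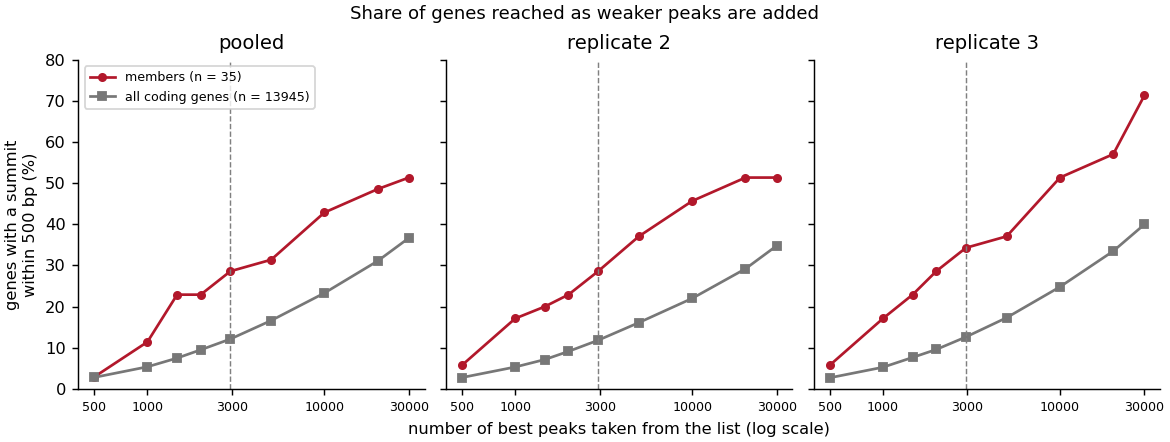
Share of genes (%) with a summit within 500 bp of a start site, against the number of best peaks taken from the pooled list and each replicate list (log scale), for the 35 members and all 13945 coding genes; the dashed line marks 2942 peaks. At 1000 peaks the shares were 11.4% of members and 5.34% of coding genes in the pooled list, and at 500 peaks they were 2.86% of members and 2.75% of coding genes.

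By role, 2 of the 8 cyclins and kinases had a reproducible promoter peak, 1 of the 5 activators and inhibitors, 2 of the 4 transcription members, 1 of the 3 nucleotide and clamp genes, 2 of the 6 helicase subunits, 1 of the 5 origin recognition and licensing genes, and 1 of the 4 mitotic genes. The share over all coding genes was 12.1%. Roles with a few members give shares that move by a large step for each gene, so the roles were not compared.

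**Figure D2:**
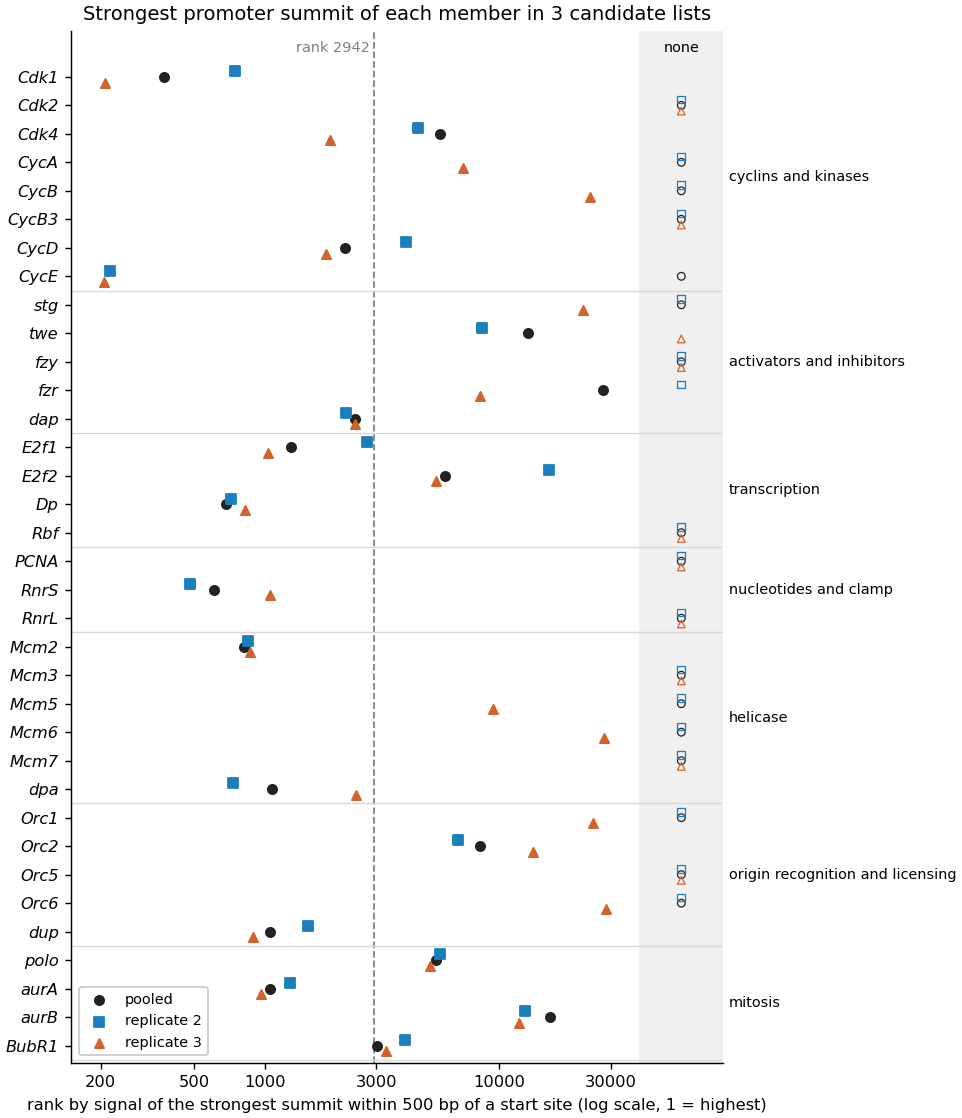
Rank by signal (log scale) of the strongest summit within 500 bp of a start site of each of the 35 members, in the pooled list and the replicate lists, grouped by role; open symbols at the right mark no summit. Points left of the dashed line are in the best 2942 peaks of their own list, which is the reproducible set in the pooled list alone. Cdk1, E2f1, Dp, RnrS, Mcm2, dpa, dup, dap and aurA have all 3 points left of the line.

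Cdk1, the kinase that drives entry into mitosis, had the strongest promoter peak of the members. The peak spanned chr2L:10386226-10386761 on dm6, between genes. Its summit lay 232 bp upstream of the start site, with a pooled signal of 380 and rank 374. The matching peak had a signal of 115 and rank 1054 in replicate 2, and a signal of 237 and rank 209 in replicate 3. The start site of mRpS7, a mitochondrial ribosomal protein gene on the other strand, was nearer at 168 bp, so the peak cannot be assigned to 1 of them by position. Replicate 2 had a higher summit nearer to Cdk1, 75 bp upstream, with a signal of 140 and rank 746. Further reproducible summits lay 1831 bp upstream at rank 1813 and 1535 bp upstream at rank 2049. Replicate 2 had 1 peak for that pair, at rank 5371, and it sat on the farther of them.

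CycD, the cyclin partner of Cdk4, had a weaker peak with its summit 271 bp upstream of its start site, between genes at chrX:15909679-15910214. The pooled signal was 153 at rank 2200, with a signal of 52.8 and rank 4001 in replicate 2 and a signal of 92.2 and rank 1835 in replicate 3. Both replicates placed the summit within 4 bp of the pooled one. Cdk4 had candidate peaks only, and its strongest summit differed in place from list to list. The strongest pooled summit ranked 5627, the strongest of replicate 2 ranked 4529 and the strongest of replicate 3 ranked 1895. Neither replicate matched that pooled summit within 100 bp. The nearest summit of replicate 2 lay 130 bp from it, at rank 4529. The nearest of replicate 3 lay 116 bp from it, at rank 27148.

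CycE, the S-phase cyclin, held a stronger peak than any counted at a member promoter, just outside the distance. It spanned chr2L:15746859-15747394 and lay in an intron, 517 bp from the nearest start site on its upstream side. It had a pooled signal of 483 and rank 210. Signals were 248 at rank 219 in replicate 2 and 238 at rank 207 in replicate 3, so it stood near the same rank in both. The replicate summits lay 456 and 476 bp from the start, inside the distance. A second intronic summit followed at 718 bp upstream, in a peak that overlaps the first and is not a separate observation. It had a pooled signal of 142 and rank 2490. Replicate 2 ranked it 318 and replicate 3 ranked it 426, both far higher than the pooled list did. The other 4 pooled summits in this gene of 20570 bp had signals of 35 to 60.5.

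Cyclins of mitosis had no peak of this strength at their starts. CycA and CycB had a candidate in replicate 3 alone, at ranks 6993 and 24539. CycB3 had none near its start in any list, and neither did Cdk2, the partner of CycE. A strong reproducible peak, at chr2R:22802795-22803138, lay near CycB on its far side, 565 bp beyond the end of the gene and 3347 bp from its nearest start. That peak had a pooled signal of 742 and rank 56, with rank 75 in replicate 2 and rank 47 in replicate 3, and no gene had a start nearer to it than CycB.

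Of the activators and inhibitors, dap, the inhibitor of CycE-Cdk2, had a reproducible promoter peak. It lay 339 bp upstream, between genes at chr2R:9711714-9712249, with a pooled signal of 145 and rank 2429. Signals were 74.7 at rank 2222 in replicate 2 and 79.6 at rank 2426 in replicate 3, so the peak stood near the pooled rank in both. The Cdc25 phosphatase gene stg had a candidate in replicate 3 alone, at rank 22848. Its relative twe, which acts in meiosis, had a pooled candidate 53 bp upstream at rank 13267, with rank 8432 in replicate 2. Of the activators of the anaphase-promoting complex, fzr had a weak pooled candidate within the distance, at rank 27937, and in replicate 3 its strongest there ranked 8267. A higher fzr summit lay outside the distance, 702 bp upstream, with a pooled signal of 123 and rank 3160. It ranked 2275 in replicate 2, inside the best 2942, and 11003 in replicate 3. No summit of fzy lay within the distance, and its nearest pooled summit was 535 bp from the start.

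E2f1 and Dp, the subunits of the activating E2F factor, both had reproducible promoter peaks. The E2f1 peak, at chr3R:21633071-21633606, lay in an intron 266 bp upstream of an internal start site, with a signal of 206 and rank 1298. Its signal was 66.2 at rank 2738 in replicate 2 and 122 at rank 1039 in replicate 3, so it stood lower in replicate 2. A second reproducible peak of E2f1 lay in an intron 3241 bp upstream of the nearest start, with a signal of 152 and rank 2218. It ranked 1516 in replicate 2 and 4413 in replicate 3. Dp had a pair of peaks, both in introns of the gene. The first, at chr2R:13223003-13223538 and 320 bp upstream, had a signal of 287 and rank 684. In replicate 2 the signal was 142 at rank 717, and in replicate 3 it was 136 at rank 826. The second, at 499 bp downstream and so just inside the distance, had a signal of 215 and rank 1191. In replicate 2 the signal was 122 at rank 955, and in replicate 3 it was 80.5 at rank 2381. The start of lncRNA:CR43918, a non-coding gene on the other strand, was nearer to this second summit, at 372 bp.

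E2f2, the repressing relative, had a pooled candidate 166 bp upstream at rank 5912. A reproducible peak lay 1987 bp upstream of E2f2, but it stood 111 bp from the start of Pld3. Rbf, the retinoblastoma protein that binds E2F, had no summit near its start or in its body in any list. Its nearest reproducible peak was 36.2 kb away.

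**Figure D3:**
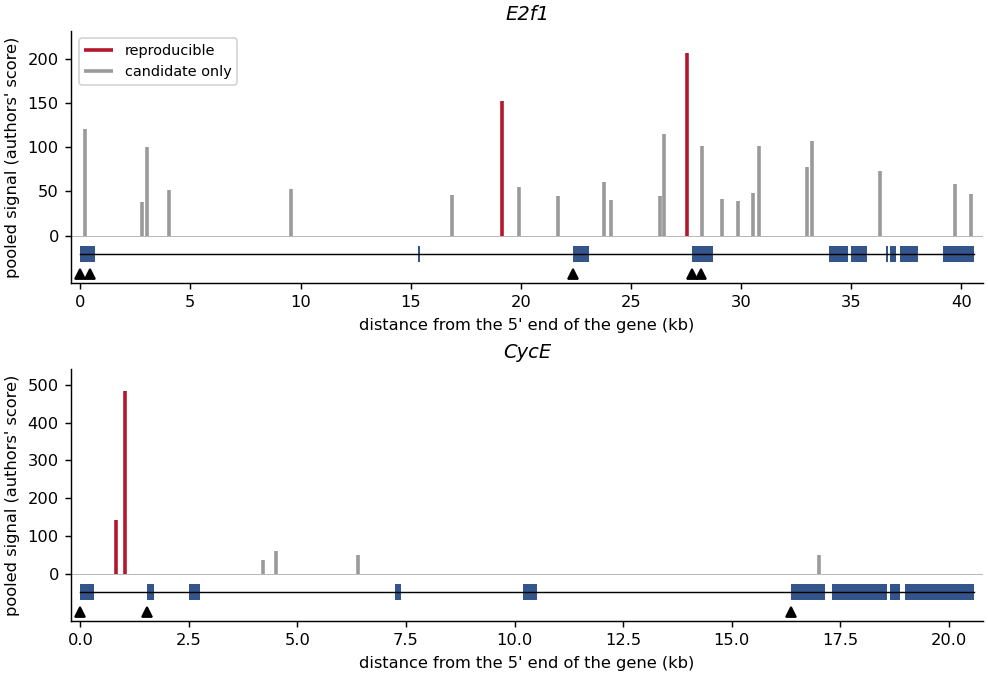
Pooled signal (authors' score) of each summit against distance (kb) from the 5' end of E2f1 and CycE, with exons as boxes and start sites as triangles. E2f1 had 24 pooled summits over 40568 bp, of which 2 were reproducible. In CycE both reproducible summits, of overlapping peaks, lay between the first pair of start sites.

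In the gene body, 5 of 35 members (14.3%) held a reproducible summit, CycE, E2f1, Dp, dpa and aurA, against 7.66% of coding genes. Away from start sites by over 500 bp, CycE and E2f1 were left, 5.71% of members against 5.08% of coding genes. E2f1 and CycE are long genes, of 40568 and 20570 bp. Among coding genes of at least 20 kb, 353 of 1013 (34.8%) held a reproducible summit in the body. Pooled candidate summits of any strength lay in the bodies of 19 members (54.3%), against 40.7% of coding genes. The 24 pooled summits of E2f1 compared with 30 in replicate 2 and 25 in replicate 3.

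RnrS, the small subunit of ribonucleotide reductase, had a promoter peak 195 bp upstream, between genes at chr2R:11985320-11985855, with a pooled signal of 306 and rank 606. The signal was 173 at rank 483 in replicate 2 and 121 at rank 1060 in replicate 3, well inside the best 2942 in both. The start of CG34231 lay 420 bp from the same summit. RnrL, which encodes the large subunit of the same enzyme, had no summit near its start or in its body in any list. PCNA, the sliding clamp of DNA polymerase, had none either, and its nearest pooled summit was 1264 bp upstream at rank 5231.

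Within the MCM helicase, Mcm2 and dpa, the fly Mcm4, had reproducible promoter peaks. Mcm2 had a pair, at 260 and 60 bp upstream, with pooled signals of 261 and 156 and ranks 820 and 2113. The first, at chr3R:8264442-8264977, had a signal of 131 and rank 848 in replicate 2 and a signal of 133 and rank 865 in replicate 3. The second ranked 1154 in replicate 2 and 1366 in replicate 3. Each stood at like ranks in the replicates. The higher summit was as near to RPA1, at 259 bp, which encodes the large subunit of the single-strand binding protein. The peak of dpa, at chr2R:7499784-7500319, lay 93 bp downstream of its start, in the 5' untranslated region, with a signal of 227 and rank 1075. Its signal was 141 at rank 730 in replicate 2 and 79.2 at rank 2450 in replicate 3. The start of didum, a myosin gene, was 95 bp away.

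At the other helicase subunits, summits were weak or missing. Mcm5 had a candidate in replicate 3 alone at rank 9434, and Mcm6 one at rank 28145. Mcm3 and Mcm7 had none near the start or in the body, with the nearest pooled summits 909 and 639 bp upstream at ranks 8105 and 6798.

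Of the origin genes, dup, the fly Cdt1, which loads the helicase, had a reproducible pair in an intron of SRPK, the higher at chr2R:15380861-15381396. They lay 141 and 358 bp upstream with pooled signals of 228 and 136 and ranks 1057 and 2671, and the start of SRPK was 320 and 103 bp from them. The first had a signal of 92.9 and rank 1533 in replicate 2 and a signal of 132 and rank 890 in replicate 3. The second ranked 2996 in replicate 2, just past the best 2942, and 2099 in replicate 3. Orc2 had a pooled candidate at rank 8264 and Orc1 and Orc6 had candidates in replicate 3 alone, at ranks 25163 and 28705. Orc5 had none. Strong reproducible peaks lay farther from Orc1 and Orc5. At 3966 bp upstream of Orc1, in an intron of Drat, a summit had a signal of 789 and rank 52, and ranked 40 in replicate 2 and 63 in replicate 3. At 5612 bp from Orc5, and 115 bp from the start of CenG1A, a summit had a signal of 662 and rank 88, and ranked 55 in replicate 2 and 176 in replicate 3.

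Among mitotic genes, aurA, the centrosomal aurora kinase, had a reproducible pair. The first, at chr3R:11962654-11963189, was 202 bp upstream of the start with a signal of 228 and rank 1059. Its signal was 103 at rank 1282 in replicate 2 and 126 at rank 970 in replicate 3. The second was 1 bp from the start with a signal of 131 and rank 2846, near the lower end of the reproducible set, and ranked 3224 in replicate 2 and 2259 in replicate 3. The start of CG3281 was 117 bp from the first, and the second lay in the 5' untranslated region of aurA. BubR1, a spindle checkpoint protein, was just outside that set: its summit 311 bp upstream had a signal of 126 and rank 3033, and a q-value of 0.0272. Replicate 2 placed it at 309 bp with rank 3985 and replicate 3 at 310 bp with rank 3291. Polo and aurB had candidates at pooled ranks 5394 and 16458.

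**Figure D4:**
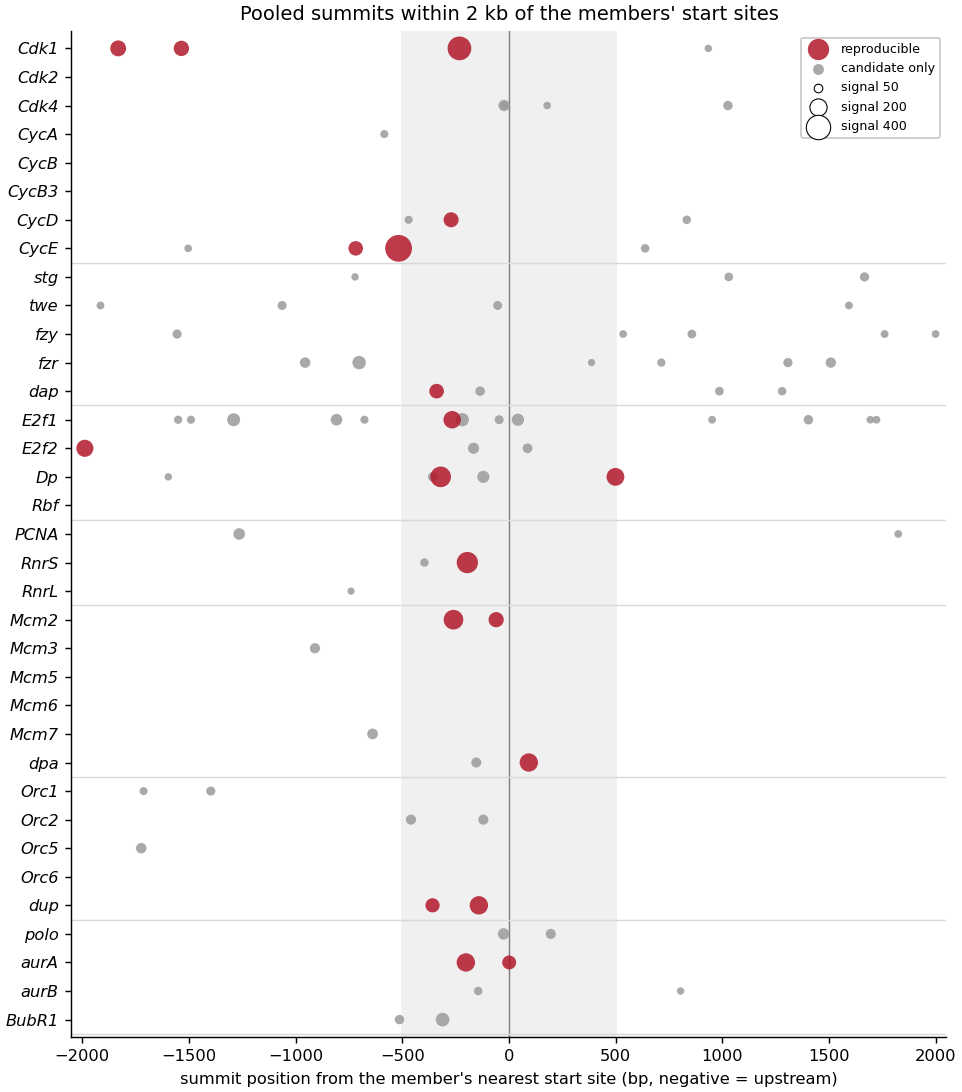
Pooled summits within 2000 bp of the nearest start site of each of the 35 members, plotted by distance (bp, upstream negative), with point area in proportion to the pooled signal (authors' score) and reproducible summits in red; the grey band is 500 bp to each side. Of the 14 reproducible summits in the band, 11 are upstream, and the CycE summits lie just left of it.

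The 14 reproducible promoter summits of the 10 members all had a summit within 100 bp in both replicate lists, and 11 of the 14 were in the best 2942 peaks of both. The exceptions were the CycD summit and the weaker summits of dup and aurA, each past that rank in replicate 2. Replicate 2 ranked 7 of the 14 higher than replicate 3 did, and replicate 3 ranked the other 7 higher. Distances from the pooled summit had a median of 35 bp in replicate 2 and 1.5 bp in replicate 3. The pooled list was made from both replicates, so its summits are not independent of either. The reproducible set was also chosen by comparing ranks between these replicates, so a match in both is largely built in. The same matches were not counted over all 2942 reproducible peaks. Positions of the 14 summits ran from 358 bp upstream to 499 bp downstream, with a median of 217 bp upstream. The median peak was 536 bp wide. The paired peaks of Mcm2, dup and aurA overlap and are not separate observations, whereas those of Dp do not overlap. Over the 18 members with a pooled candidate, the nearest promoter summit was upstream in 13 (72.2%), against 72.6% of coding genes. The median rank of the strongest promoter summit was 2314.5 over these 18 members, against 5972.5 over 5124 coding genes.

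Many of these promoters are shared with a neighbour. Of the 10 members with a reproducible promoter peak, 6 (60%) had the start of another coding gene within 500 bp of the summit, against 995 of 1689 coding genes (58.9%). A divergent start within 500 bp was annotated for 12 of 35 members (34.3%), against 30.8% of coding genes. Of those 12 members 5 had a reproducible peak (41.7%), against 22% of divergent coding genes. Of the other 23 members 5 had one (21.7%), against 7.73% of such coding genes. The Mcm2 and RPA1 starts fell outside this definition of divergent.

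For the 25 members without a reproducible promoter peak, the nearest reproducible summit was a median of 5946 bp away, from 517 bp at CycE to 105983 bp at aurB. It was within 5 kb for 7 of them and over 10 kb away for 11. For 20 of the 25, that summit stood within 500 bp of the start of another gene. Such a place is common: 1451 of all 2942 reproducible summits lay within 500 bp of a coding start. The counts of this paragraph were not made for all coding genes, so they are not traits of the members. The nearest to Cdk4, for example, was 174 bp from the start of RpLP2, that of RnrL 142 bp from SamDC and that of Orc2 316 bp from rdx.

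E2F words stood in many of the members' promoter windows, with and without a peak. They were found in 14 of 35 members, CycB, CycE, stg, RnrS, RnrL, Mcm2, Mcm3, Mcm5, Mcm6, dpa, Orc1, Orc5, Orc6 and dup, while 8.72% of coding genes held one. Of the 14 members with an E2F word 4 had a reproducible peak (28.6%), and of the 21 without it 6 had one (28.6%). Among coding genes the shares were 16% with the word and 11.7% without it. DRE stood in 7 members, Cdk2, Cdk4, CycA, PCNA, Orc2, Orc5 and BubR1, and in 10.2% of coding genes. None of those 7 had a reproducible promoter peak, against 17.6% of coding genes with DRE. The core of Ohler motif 1, GGTCACAC, stood in 7 members, CycB, CycB3, fzy, Rbf, Mcm3, Orc5 and aurB, and in 8.71% of coding genes. None of those 7 had a reproducible promoter peak, against 13.8% of coding genes with that word. Of the 22 members with CHR letters 5 had one (22.7%), against 13.7% of such coding genes. For the E-box words CAGCTG and CACGTG it was 3 of 10 and 1 of 1, against 17.2% and 15.5%. For the GAGA word GAGAGAG it was 2 of 4, against 21.2%, and no member held the Zelda word CAGGTAG. These counts are small, and each gene moves a share by a large step.

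In windows of 200 bp centred on the 14 member summits, 100 bp to each side, none held DRE, against 4.14% of the 1451 reproducible summits within 500 bp of a start site. One window, at dpa, held an E2F word, 91 bp from the summit, against 2.69% of those summits. In windows of 400 bp, 3 of the 14 held one, against 6.96%. The CHR letters stood in 6 of the 14 windows, at Cdk1, E2f1, RnrS, dpa and both aurA summits, against 37.8%. The E-box words CACGTG and, as a second form, CAGCTG, the GAGA word GAGAGAG, the Zelda word CAGGTAG and the Ohler motif 1 core were in none of the 14. In that order, they were in 2.07%, 8.2%, 3.58%, 0.551% and 1.65% of the 1451 windows. In windows of 400 bp they stood in 1, 3, 1, 0 and 1 of the 14, against 4.82%, 23.4%, 13.4%, 1.79% and 5.58%. A match is a run of letters, and 14 windows give a coarse share.

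GC content round the 14 member summits, in 151 bases, had a median of 29.5% with quartiles of 27.2% and 36.8%. That was near the 31.1% of all 1451 reproducible promoter summits. Weaker candidate promoter summits had a median of 37.7%, and the sequence 200 bp upstream of all coding genes had 35.1%. Upstream of the 25 members without a reproducible peak the median was 31.8%, so their promoters were also AT-rich. This comparison was added after other results had been seen.

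**Figure D5:**
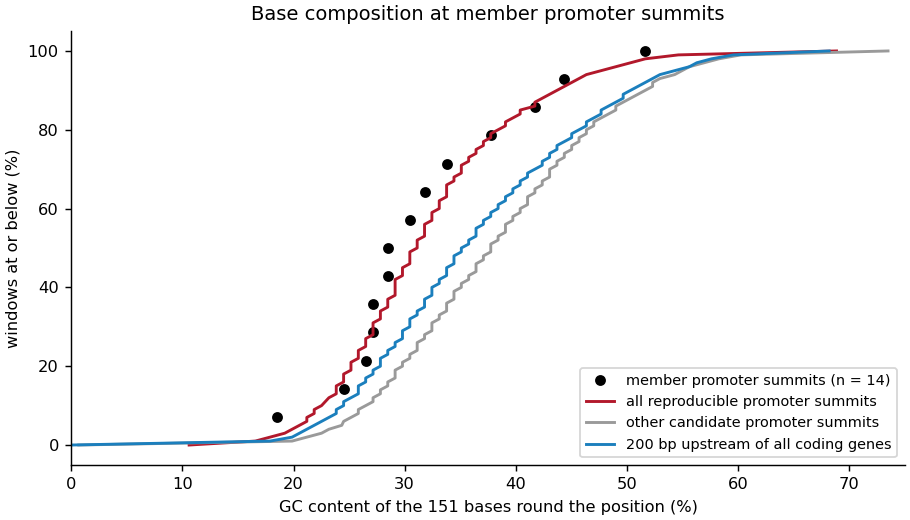
Cumulative share of windows (%) at or below each GC content (%) in 151 bases, for the 14 member promoter summits (points) and 3 sets of all genes (lines). Member points run from 18.5% to 51.7% and lie by the line of all reproducible promoter summits, to the left of the lines of weaker candidates and of upstream sequence.

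Other genes of the pathway were taken from a wider list, of which 102 of 104 names matched, giving 101 distinct genes. A reproducible promoter peak was found at 11 of the 101 (10.9%), against 12.1% of coding genes. In the best 2942 peaks of replicate 2 alone it was 16 of 101 (15.8%), against 11.8%, and in those of replicate 3 alone 11 of 101 (10.9%), against 12.6%, so the side of the background differed between replicates. Of 32 further replication genes, 3 had one: PolD2, a subunit of DNA polymerase delta, at rank 291 with a signal of 419, RPA1 at rank 820, through the peak it shares with Mcm2, and chif, the activator of the Cdc7 kinase, at rank 1693. Of 16 regulators of cyclin-dependent kinases none had one. Of 9 dREAM and DRE factors, most of them subunits or relatives of the dREAM repressor, 3 had one. They were lin-52 at rank 81 with a signal of 673, Rbf2 at rank 2299 and mip130 at rank 2820. The lin-52 summit lay 478 bp from its start, near the limit of the distance. Of 37 mitotic genes, 3 had one: tum, which acts in cytokinesis, at rank 789, and Cdc16 and APC4, subunits of the anaphase-promoting complex, at ranks 1162 and 2223. Of 7 checkpoint genes, 2 had one, tefu, the fly ATM kinase, at rank 790 and mei-41, the fly ATR kinase, at rank 918, the first through a peak near Hsc70-4 and the second near TH1. Except at APC4, the strongest reproducible summit of each of these 11 genes also had the start of another gene within 500 bp. Position alone does not assign those peaks to the named genes. Candidate peaks of any strength lay at the starts of 47 of the 101 genes (46.5%), against 36.7% of coding genes.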

How the data were processed

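Peaks of Su(var)2-10-GFP chromatin immunoprecipitation from whole embryos were used as the authors deposited them on dm6. Per the submitters' file notes, each replicate had its own list, called over a control, and the pooled list was called on both replicates' alignments together. The aligner, the peak caller, their versions and the threshold on IDR: not given in the sources used here. Depth per sample is unknown. Signal is a unitless score from the authors, deposited per peak. The deposited −log10 q gave the q-value, and the deposited offset the summit. Lists on dm3 were not used.

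Start sites, gene bodies and symbols are those of Ensembl release 115 (BDGP6.54). Bases were read from RefSeq's copy of Release 6, the same assembly as dm6. A summit within 500 bp of a start site made a promoter peak, and a replicate match lay within 100 bp. Positions count from 0 at the start site. Motifs were exact matches on both strands. Of the wider list, lat and SA found no match, and CDC45L and Cdc45 name 1 gene, counted once. Named were all members, up to 4 wider-list genes per subgroup with a reproducible promoter peak by signal, and genes with a start within 500 bp of a member's reproducible promoter summit; genes at distant peaks were named after their values were seen. Members and lists were chosen with earlier results of these data known. No statistical test was run, since 1 group of 2 replicates gives no contrast. Python 3.11.15 was used, with pandas 2.3.3, numpy 2.4.6 and matplotlib 3.10.9. Assignment of summits to start sites was tested on simulated data, where 200 of 200 were recovered. Alternatives changed the distance, start-site rule, peak set, replicate, q-value limit of 0.05, match distance and motif window.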

Additional observations from a re-analysis of the deposited data

How the results depend on the processing

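Members with a reproducible promoter peak numbered 6 at 250 bp, against 10 at 500 bp, and 8 to 11 under the other rules for distance, start sites and signal. With a single replicate they numbered 10 to 12. Candidates with a q-value under 0.05 numbered 11, against 18 of any q, and with a single replicate 18 to 25. The wider list had 7 in the stronger 1471 reproducible peaks, against 11 in all, and 11 to 16 with a single replicate (15.8%, against 11.8% of coding genes, in replicate 2 and 10.9%, against 12.6%, in replicate 3). Gene bodies with a reproducible peak numbered 5 at any distance from start sites, and 2 at over 500 bp from them. With a single replicate, those at any distance numbered 4 to 6. Matches in both replicates within 50 bp numbered 8, against 14 within 100 bp. The median rank of the strongest pooled promoter summit was 4557 at 250 bp and 3160 at 1000 bp, against 2314.5, so its size rests on the distance. E2F words were in 0 of 14 windows at 100 bp and in 3 at 400 bp, against 1 at 200 bp. Median GC was 32.1% over 301 bases, against 29.5% over 151, and 29.1% to 29.8% with the summits of a single replicate. The cause of these moves was not tested. No paired analysis was possible because there is 1 group of samples. Depth is unknown here. Each candidate list ends at 30000 peaks, so a member with no promoter peak had no summit within 500 bp above the lowest signal of that list. A strong summit can still lie just outside, as at CycE with a pooled signal of 483 at 517 bp. Embryos mix cell types, cycle stages and ages, and no untagged comparison was used here.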
